A study of Mus musculus with 20 samples.

Results

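Oxidative phosphorylation is carried out by 5 protein complexes of the inner mitochondrial membrane. Their subunit genes were taken from the gene counts by symbol, as protein-coding genes whose mouse symbol begins with mt- or names an NADH dehydrogenase (Nduf), succinate dehydrogenase (Sdh), ubiquinol-cytochrome c reductase (Uqcr), cytochrome c oxidase (Cox4 to Cox8) or ATP synthase (Atp5) subunit. This gave 97 of the 43430 genes counted, of which 21474 were protein-coding. Among the 97 were the 13 proteins encoded by the mitochondrial genome and 84 nuclear genes, 35 of complex I, 4 of complex II, 8 of complex III, 20 of complex IV and 17 of complex V. A further 34 genes matched by symbol but were not protein-coding and were left out. After genes with few counts were removed, 95 of the 97 were tested. *Cox8c* had no read in any library, where a count of 0 allows up to 0.0563 CPM (counts scaled to a common library total) in the shallowest library for counting error alone, and *Cox7b2* had 1 read in all.

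Complexes I to IV pass electrons from NADH and succinate to oxygen. Of these, I, III and IV pump protons, and complex V uses the proton gradient to make ATP. Complex II is encoded by nuclear genes alone, whereas the other complexes mix nuclear subunits with subunits made on mitochondrial ribosomes from polycistronic transcripts, so the products of both genomes have to be assembled together. The proximal tubule, which makes up most of the kidney cortex, is rich in mitochondria and draws most of its ATP from this pathway to reabsorb glucose, amino acids and sodium.

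RNA came from the kidney cortex of male C3H/HeJ mice that were fed a high-fat diet (HFD, 60% of calories from fat) from 10 weeks of age. Sweet Pee (SP) mice carry a missense change in *Slc5a2*, which encodes the tubular glucose carrier SGLT2, and wild-type (WT) mice do not. After 8 weeks of HFD, mice of each genotype received for 8 more weeks either MAT2Ai, an inhibitor of the S-adenosylmethionine synthetase MAT2A, at 10 mg/kg by intraperitoneal injection 3 times a week, or placebo (DMSO). The 4 groups of 5 libraries were SP MAT2Ai, SP placebo, WT MAT2Ai and WT placebo, all on HFD, so no group shows the pathway on normal chow. The mutation is carried in the germline, and the inhibitor was given to the whole animal.

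Each library held between 53296824 and 79339949 reads counted in genes. *Slc5a2* was at 43.5 to 85.9 CPM in SP MAT2Ai and at 40.2 to 282 CPM in SP placebo libraries, against 229 to 415 CPM in WT MAT2Ai and 371 to 518 CPM in WT placebo libraries. The libraries labelled SP placebo 1 and 2, at 241 and 282 CPM, lay above all other SP libraries. They lay below every WT library except WT MAT2Ai 2 (229 CPM). Every comparison that uses the SP placebo group was therefore also made without these libraries. The library WT MAT2Ai 2 stood apart by its tubular injury markers, whose summed level was 8306 CPM there and between 452 and 983 CPM in the 19 others, and *Havcr1*, which encodes the injury marker KIM-1, reached 1214 CPM. The 14 proximal tubule S1 and S2 markers, all detected, summed to 16210 CPM in that library and to between 19857 and 24125 CPM in the others. In tissue RNA, fewer proximal tubule cells and less RNA per cell cannot be told apart, which holds for every value given here.

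The mitochondrially encoded genes took 11.9% to 21.3% of all gene counts, and nearly all of it came from 7 of the 13 genes. *mt-Co1*, the catalytic subunit of cytochrome c oxidase, had 35.2% of the counts of the 13 genes, followed by *mt-Cytb* of complex III with 22.6% and the complex I subunits *mt-Nd1* (12.6%), *mt-Nd5* (10.9%), *mt-Nd2* (10.1%) and *mt-Nd4* (8.23%). *mt-Nd6*, the only protein-coding gene on the other strand, had 0.180%. The remaining 6 genes, *mt-Co2*, *mt-Atp8*, *mt-Atp6*, *mt-Co3*, *mt-Nd3* and *mt-Nd4l*, had 0.0537% together. Per length, *mt-Co1* averaged 83299 TPM (counts divided by exon length and scaled to the same total in each library), with 65213 in the lowest and 106933 in the highest library, whereas *mt-Co2* and *mt-Co3*, which encode the other core subunits of the same enzyme, averaged 70.8 and 92.6 TPM. The 6 low genes lie next to each other on chromosome M, between bases 7013 and 10173 of mm10, and are transcribed in the same direction as *mt-Co1* before them and *mt-Nd4* after them.

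**Figure D1:**
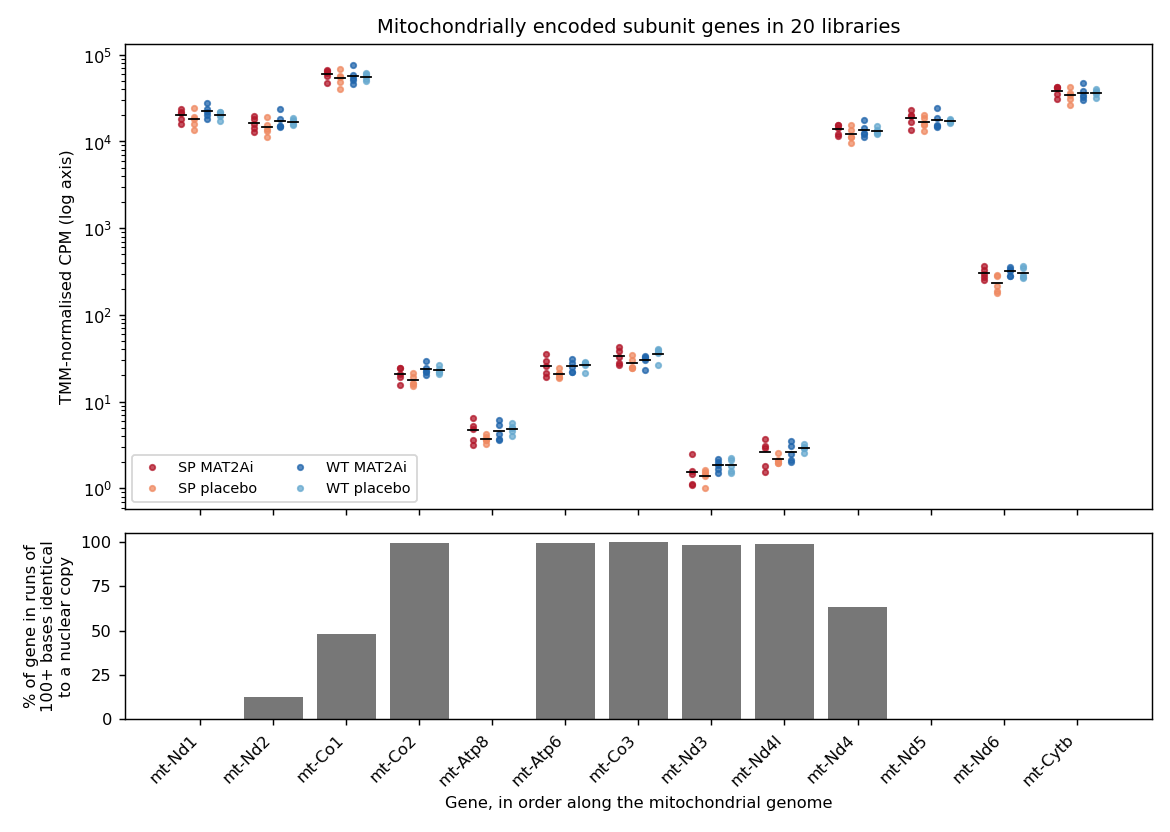
TMM-normalised CPM of the 13 mitochondrially encoded genes on a log axis, in their order along the mitochondrial genome (points: 5 libraries per group; black bars: group means), above the percentage of each gene that lies in runs of at least 100 bases identical to an annotated nuclear copy. The 6 genes from mt-Co2 to mt-Nd4l lie below mt-Nd6 and further below the other 6 genes in every library, and 5 of these 6 low genes are covered by identical runs over 98.3% to 99.9% of their length.

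The low genes are also the genes with identical copies in the nuclear genome. GENCODE annotates pseudogenes on chromosome 1, between bases 24611535 and 24615565, that match *mt-Co2* (Gm28661), *mt-Atp6* (Gm10925), *mt-Co3* (Gm28437), *mt-Nd3* (Gm28438) and *mt-Nd4l* (Gm10222) at 99.7% to 100% identity over 99.0% or more of each gene. Identical runs of at least 100 bases covered 98.3% to 99.9% of these 5 genes, 63.6% of *mt-Nd4*, 48.1% of *mt-Co1*, 12.4% of *mt-Nd2* and none of *mt-Nd1*, *mt-Nd5*, *mt-Nd6*, *mt-Cytb* and *mt-Atp8*. Reads that align to several places are not counted for any gene in these files, and there were 48.3 to 63.6 such alignments for every 100 counted reads. 4 of these 5 copies had counts close to those of the gene, with a median of 1201 reads for Gm28661 beside 1397 for *mt-Co2*, 1419 for Gm10925 beside 1574 for *mt-Atp6*, and 1909 for Gm28437 beside 2065 for *mt-Co3*. Gm10222 had 172 beside 173 for *mt-Nd4l*, whereas Gm28438 had 1399 beside 104 for *mt-Nd3*. The counts of these 5 genes are therefore not a measure of their transcripts against those of *mt-Co1*, and they were uncertain in the comparisons too. For *mt-Atp8*, which was also low at a median of 272 reads, no such copy is annotated. Only annotated transcripts were searched. *mt-Atp8* lies between *mt-Co2* and *mt-Atp6*, whose copies lie close together on chromosome 1 (Gm28661 from base 24614885, Gm10925 up to base 24614651). Whether the bases between these 2 copies match *mt-Atp8* was not tested.

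The first 60 bases of *mt-Co2*, *mt-Co1* and *mt-Nd3* are shown beside a nuclear copy of each, to compare a stretch without any difference with stretches that hold 1 or 2 (mm10, all 5′ to 3′ along the gene). Capitals mark bases that differ between the gene and its copy.
mt-Co2 (chrM:7013-7072, plus strand): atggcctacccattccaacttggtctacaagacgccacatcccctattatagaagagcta
Gm28661 (chr1:24615506-24615565, minus strand): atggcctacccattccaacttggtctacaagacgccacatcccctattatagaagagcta
mt-Co1 (chrM:5328-5387, plus strand): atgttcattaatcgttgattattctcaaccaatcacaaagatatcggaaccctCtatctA
Gm13340 (chr2:22589588-22589647, minus strand): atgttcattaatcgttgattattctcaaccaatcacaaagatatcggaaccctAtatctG
mt-Nd3 (chrM:9459-9518, plus strand): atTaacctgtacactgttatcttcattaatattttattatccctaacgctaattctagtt
Gm28438 (chr1:24613060-24613119, minus strand): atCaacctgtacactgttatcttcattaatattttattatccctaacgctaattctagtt
Over its whole length *mt-Co2* had no difference from Gm28661 in 681 aligned bases, whereas *mt-Co1* had 37 from Gm13340 in 1545, beginning with C54A and A60G, the base of the gene first and positions counted from its first base. Another copy, Gm29216, is identical to *mt-Co1* over a run of 479 bases, so part of *mt-Co1* cannot be placed by a short read either. *mt-Nd3* had a single difference from its copy, T3C, in 345 aligned bases. All these sequences are those of mm10. Whether the C3H/HeJ mice carry the same bases, and where their reads over a differing base were placed, was not tested.

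*mt-Atp8* overlaps *mt-Atp6* by 43 bases, and in the default mode of the counter reads over such bases are left out of both genes as ambiguous. The shared bases are shown with the start codon of *mt-Atp6* and the stop codon of *mt-Atp8* in capitals.
mt-Atp8 and mt-Atp6 (chrM:7927-7969, plus strand): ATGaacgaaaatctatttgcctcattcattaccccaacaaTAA
They make up 43 of the 204 bases of *mt-Atp8*. *mt-Nd4l* shares 7 bases with *mt-Nd4* in the same way, and *mt-Nd5* and *mt-Nd6* share 14 bases on opposite strands. The counting step does not state whether strand was used, so for *mt-Nd6* reads from the opposite strand cannot be told apart.

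The nuclear subunits took 2.09% to 2.64% of all gene counts. Per length, the highest nuclear member was *Cox8a* of complex IV, with a mean of 1603 TPM over the 20 libraries, followed within the other complexes by *Atp5b*, the catalytic beta subunit of ATP synthase (1513 TPM), *Uqcr10* of complex III (1388 TPM), *Ndufb9* of complex I (861 TPM) and *Sdhd*, a membrane anchor of complex II (614 TPM). The lowest members were *Atp5l* of complex V (8.73 TPM), *Ndufb2* of complex I (26.7 TPM), *Sdhc* of complex II (256 TPM), *Uqcrc1* of complex III (277 TPM) and, in complex IV, *Cox8c*. The summed exon lengths of *Atp5l* and *Ndufb2*, 6443 and 5628 bases, are long for such small proteins and lower their values on this scale. The median member had 237 TPM in complex I, 365 TPM in complex II, 490 TPM in complex III, 276 TPM in complex IV and 322 TPM in complex V.

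Complex IV and ATP synthase contain subunits with tissue isoforms, and in the cortex the ubiquitous form was the higher one in every library. *Cox4i2*, the isoform known from lung and low oxygen, stood at 0.0817% ± 0.0280 of the TPM of *Cox4i1* (SD, n = 20). The heart and muscle forms *Cox6a2* and *Cox8b* stood at 0.375% ± 0.202 of *Cox6a1* and 0.324% ± 0.240 of *Cox8a*, and the testis form *Cox6b2* at 0.406% ± 0.135 of *Cox6b1*. *Ndufa4l2*, a hypoxia-induced relative of *Ndufa4*, reached 0.472% ± 0.121 of it. The heart and muscle form *Cox7a1* was higher, at 6.35% ± 0.850 of *Cox7a2*, and *Cox7a2l*, which is needed for the supercomplex of complexes III and IV, reached 10.7% ± 1.21 of *Cox7a2*. The 3 genes for the c subunit of ATP synthase, which encode the same mature protein, were ordered *Atp5g3* (690 TPM), *Atp5g1* (91.8 TPM) and *Atp5g2* (39.8 TPM). The share of *Atp5g1* relative to *Atp5g3* spanned only 11.9% to 14.6% over the 20 libraries.

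Promoter windows from RefSeq (GRCm38.p6, 250 bases before and 50 after each start) were matched by symbol for 66 of the 84 nuclear members, and 6 motifs linked to respiratory or housekeeping genes were searched on both strands. None of the 6 contains another. The NRF1 core GCGCATGC was in 10 of the 66 promoters (15.2%), against 4.14% of 16317 protein-coding genes. The YY1 core AAGATGGCG was in 7 (10.6%, against 2.27%), and the ETS core CCGGAAG, to which the GABP factor binds, in 16 (24.2%, against 13.5%). The CRE core TGACGTCA was in 4 (6.06%, against 2.66%), the CCAAT box CCAAT in 29 (43.9%, against 42.0%) and the GC box GGGCGG in 26 (39.4%, against 51.4%). At least 1 of the first 3 was in 27 of the 66 (40.9%, against 18.3%). As examples, the bases before the start are given for *Ndufb6* and *Ndufa10*, 2 complex I genes with low p values in the comparisons below, with the motifs in capitals.
Ndufb6 (chr4:40279422-40279671, minus strand): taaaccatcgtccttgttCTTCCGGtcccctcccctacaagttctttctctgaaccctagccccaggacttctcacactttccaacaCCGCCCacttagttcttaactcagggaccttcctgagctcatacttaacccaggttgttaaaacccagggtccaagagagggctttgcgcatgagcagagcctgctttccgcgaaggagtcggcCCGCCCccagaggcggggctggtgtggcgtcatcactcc
Ndufa10 (chr1:92473861-92474008, minus strand): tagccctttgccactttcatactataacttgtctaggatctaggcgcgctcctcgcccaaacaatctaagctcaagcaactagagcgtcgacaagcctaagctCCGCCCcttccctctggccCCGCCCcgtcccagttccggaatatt
The window of *Ndufb6* holds an ETS core and 2 GC boxes. That of *Ndufa10* holds 2 GC boxes, and the 102 bases nearest its start are not shown because GENCODE places them inside the gene. Its whole window also holds a CRE core. A match describes the letters and not a bound site.

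The balance of the genomes was first compared as shares of each library. The 13 mitochondrially encoded genes took 17.8%, 13.5%, 17.2%, 17.5% and 15.1% of counts in SP MAT2Ai libraries 1 to 5, and 18.7%, 13.6%, 15.7%, 14.6% and 11.9% in SP placebo libraries 1 to 5. They took 17.3%, 16.3%, 14.5%, 14.9% and 21.3% in WT MAT2Ai libraries, and 16.2%, 15.8%, 17.3%, 16.9% and 14.7% in WT placebo libraries. The group means were 16.2% ± 1.87 in SP MAT2Ai, 14.9% ± 2.55 in SP placebo, 16.8% ± 2.70 in WT MAT2Ai and 16.2% ± 0.980 in WT placebo (SD, n = 5 each), and the ranges of all 4 groups overlapped. Without the libraries labelled SP placebo 1 and 2, the SP placebo mean was 14.1%.

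The nuclear subunits varied less. Their group means were 2.33% ± 0.0805 of counts in SP MAT2Ai, 2.38% ± 0.0941 in SP placebo, 2.30% ± 0.205 in WT MAT2Ai and 2.44% ± 0.134 in WT placebo. The mitochondrial to nuclear ratio of counts averaged 6.96 ± 0.830 in SP MAT2Ai, 6.28 ± 1.21 in SP placebo, 7.43 ± 1.74 in WT MAT2Ai and 6.64 ± 0.426 in WT placebo. It spanned 5.15 in SP placebo 5 to 10.2 in WT MAT2Ai 5, a library in which the mitochondrial share was the highest of the 20 and the nuclear share the lowest. That library also had the most unique reads outside genes (5.49%) and the most multiply mapped alignments (63.6 for every 100 counted reads) of the 20, and 1720 CPM of *Cd74*, the invariant chain of MHC class II. Their part in its ratio was not tested. With 5 libraries a group, the differences between the group means of each measure were smaller than 1 SD of at least 1 of the groups compared, and no test was made of these sums.

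**Figure D2:**
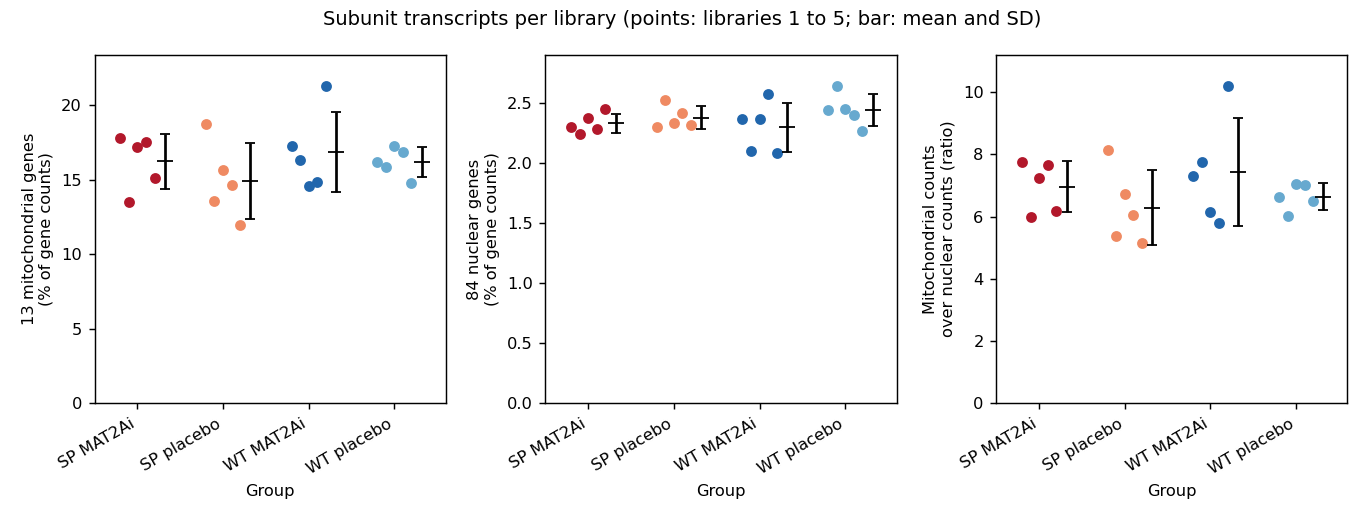
Percentage of gene counts in the 13 mitochondrially encoded genes (left), in the 84 nuclear genes (middle) and the ratio of both sums (right) for each library, by group (points: libraries 1 to 5; bars: mean and SD). The ranges of the 4 groups overlap in every panel, and WT MAT2Ai 5 has the highest ratio at 10.2.

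The mitochondrially encoded genes also differed more between libraries of the same group. For members above 10 CPM, the within-group SD of log2 CPM was 0.232 in the median for the 7 high mitochondrial genes (0.211 to 0.247) and 0.121 for 76 nuclear genes, beside 0.130 for all 8450 genes above that level. Nuclear subunits of different complexes were high or low in the same libraries, so counts of members by sign below are not counts of independent results. Relative to the mean of the 20 libraries, the median member of each nuclear complex lay between −0.38 and −0.22 (log2) in WT MAT2Ai 2, the library with the injury markers, and between 0.06 and 0.20 in WT MAT2Ai 4. Complex II was the lowest of the 5 in WT MAT2Ai 2. The 7 high mitochondrial genes were at −0.08 in WT MAT2Ai 2, well within the range of the others, and reached their extremes in other libraries, −0.48 in SP placebo 5 and 0.44 in WT MAT2Ai 5. In WT MAT2Ai 5 the 5 nuclear complexes lay at −0.17 to −0.11.

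**Figure D3:**
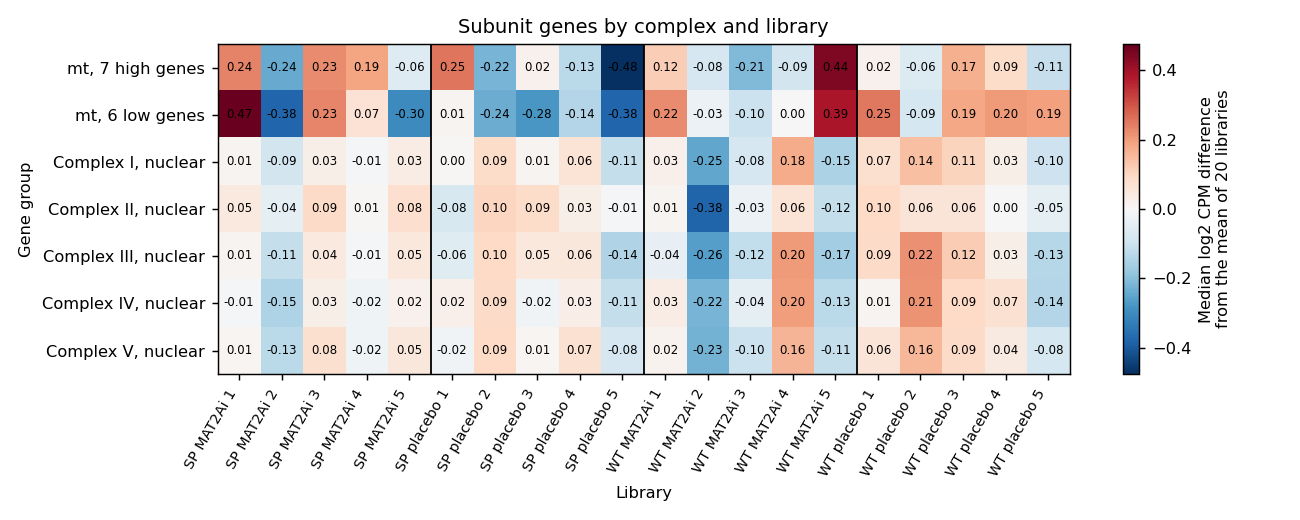
Median log2 CPM of the members of each gene group in each library, as the difference from the mean of the 20 libraries (rows: the 7 high and 6 low mitochondrially encoded genes and the nuclear members of complexes I to V; columns: libraries by group). The nuclear rows move together from library to library, lowest in WT MAT2Ai 2, whereas both mitochondrial rows are highest or lowest in other libraries.

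The inhibitor was first compared with placebo in SP mice. No member passed an adjusted p of 0.05 in edgeR's quasi-likelihood test, where 0.0186% of the 16152 genes tested did. The 13 mitochondrially encoded genes all had positive log2 fold changes, from 0.14 to 0.38 with a median of 0.17, beside a median of −0.02 over the 82 nuclear members and of 0.00 over all genes. For the 6 low mitochondrial genes the median was 0.28, and for the 7 high genes 0.16. The mitochondrial median was 0.09 without SP placebo 5 and 0.27 without SP placebo 1, and also 0.27 without the libraries labelled SP placebo 1 and 2. At an unadjusted p under 0.05, 4 members were higher and 1 lower (all genes, 3.08% and 2.84%), and DESeq2 and limma-voom called none at an adjusted p of 0.05, with 5 and 4 members at an unadjusted p under 0.05.

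*mt-Nd6*, a core membrane subunit of complex I, had the smallest p among the members in that comparison. It stood at 274, 250, 362, 332 and 294 CPM in SP MAT2Ai libraries, against 216, 189, 283, 291 and 179 CPM in SP placebo libraries. The groups overlapped, and the log2 fold change was 0.38 ± 0.14 (SE), with an adjusted p of 0.826 in edgeR. *Ndufa10*, an accessory subunit of complex I, stood at 272, 262, 288, 265 and 281 CPM in SP MAT2Ai, against 234, 246, 252, 253 and 255 CPM in SP placebo. These groups did not overlap, which held for no other member and for 1.06% of all genes in the higher and 0.52% in the lower direction. Its log2 fold change was 0.14 ± 0.06 (adjusted p = 0.833, edgeR).

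2 complex IV isoforms of low level had larger differences in opposite directions. *Ndufa4l2* was at 2.81, 1.65, 2.00, 2.47 and 1.67 CPM in SP MAT2Ai, against 2.77, 4.36, 2.75, 2.36 and 2.98 CPM in SP placebo, a log2 fold change of −0.52 ± 0.21 (adjusted p = 0.833, edgeR). *Cox6b2* was at 1.95, 2.67, 2.68, 3.88 and 2.36 CPM in SP MAT2Ai, against 2.48, 2.06, 1.83, 1.57 and 2.04 CPM in SP placebo, a log2 fold change of 0.44 ± 0.19 (adjusted p = 0.833, edgeR). In both the groups overlapped. *Ndufa12*, an accessory subunit of complex I, followed at 0.08 ± 0.06.

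In WT mice the inhibitor comparison had the opposite split, with the nuclear and not the mitochondrial genes to one side. No member passed the threshold, as did 0% of all genes. Of the 82 nuclear members 77 had negative log2 fold changes, with a median of −0.11 beside 0.01 over all genes, including all 35 of complex I, all 4 of complex II and all 8 of complex III. The 8 markers of the proximal tubule S3 segment, all detected, summed to 16759, 12941, 16302, 18374 and 14683 CPM in WT MAT2Ai libraries, against 16477 to 18601 CPM in WT placebo libraries, and the S1 and S2 markers to 16210 to 22848 CPM, against 20071 to 23484 CPM. The 12 injury markers, all detected, summed to 540 to 8306 CPM in WT MAT2Ai, against 508 to 596 CPM in WT placebo. The part of these markers' cells in the nuclear values was not tested. The 13 mitochondrially encoded genes had a median of 0.03, with 7 positive and 6 negative. At an unadjusted p under 0.05, 6 nuclear members were lower and none higher, where 5.36% of all genes were lower and 10.4% higher, and DESeq2 and limma-voom gave 9 and 8 members at that level and called none. No member had groups that did not overlap, where 1.52% of all genes did in the higher and 0.662% in the lower direction.

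With 1 library left out, the nuclear median in WT mice lay between −0.16 without WT MAT2Ai 4 and −0.07 without WT MAT2Ai 2, and it was −0.13 without WT MAT2Ai 2, 3 and 4 together, which had stood apart in an earlier look at these data and whose removal leaves 2 libraries in the group. The mitochondrial median depended on single libraries. It was between −0.11 and 0.07 with 1 library left out, −0.11 being the value without WT MAT2Ai 5, and 0.21 without WT MAT2Ai 2, 3 and 4.

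*Atp5f1*, a subunit of the peripheral stalk of ATP synthase, had the smallest p. It stood at 586, 458, 526, 618 and 477 CPM in WT MAT2Ai libraries 1 to 5, against 636, 674, 631, 595 and 556 CPM in WT placebo, a log2 fold change of −0.21 ± 0.08 (adjusted p = 0.239, edgeR). *Ndufb6*, an accessory subunit of complex I whose promoter is printed above, was at 157, 125, 135, 175 and 132 CPM in WT MAT2Ai, against 178, 198, 172, 174 and 148 CPM in WT placebo (−0.26 ± 0.11, adjusted p = 0.261, edgeR). The lowest value of both genes was that of WT MAT2Ai 2 and the highest of the WT MAT2Ai group that of WT MAT2Ai 4. The complex III subunits *Uqcrfs1*, the Rieske iron-sulfur protein, and *Uqcrc2*, a core protein, followed at −0.17 ± 0.07 and −0.16 ± 0.07.

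The mutation was compared under placebo, SP against WT. No member passed, as did 0% of all genes. All 13 mitochondrially encoded genes were at negative log2 fold changes, with a median of −0.34, beside −0.04 over the nuclear members and 0.00 over all genes. Without the libraries labelled SP placebo 1 and 2 these medians were −0.33 and −0.06. The mitochondrial median was −0.39 for the 6 low genes and −0.12 for the 7 high genes, among which *mt-Nd6* was at −0.41 ± 0.14. Of the low genes, *mt-Atp8* was at −0.39 ± 0.18. No identical copy of it is annotated, but the bases between the copies of its neighbours were not searched. The other 6 high genes lay between −0.21 and −0.04. At an unadjusted p under 0.05, 7 members were lower and none higher (all genes, 2.06% and 1.7%). They were *mt-Co2*, *mt-Nd6*, *mt-Co3*, *mt-Atp6*, *Cox6b2*, *mt-Atp8* and *mt-Nd4l*. DESeq2 and limma-voom gave 8 and 7 such members and called none. No member had groups that did not overlap, where 0.656% of all genes did in the higher and 0.539% in the lower direction.

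*mt-Co2* stood at 21.5, 16.4, 16.1, 19.2 and 15.1 CPM in SP placebo libraries, against 22.1, 20.8, 26.1, 23.6 and 22.1 CPM in WT placebo libraries, a log2 fold change of −0.38 ± 0.12 (adjusted p = 0.999968, edgeR). Only SP placebo 1 reached the WT range. Its nuclear copy Gm28661 had a log2 fold change of −0.25 ± 0.13 in the same comparison. The copies of *mt-Atp6* and *mt-Co3* stood at −0.36 ± 0.16 and −0.36 ± 0.14, beside −0.34 ± 0.14 and −0.37 ± 0.14 for the genes. The copy of *mt-Nd4l* stood at −0.36 ± 0.22 beside −0.44 ± 0.21, whereas that of *mt-Nd3* stood at −0.09 ± 0.19 beside −0.41 ± 0.21 for the gene. For *mt-Nd4*, which the copy matches over 63.6% of its length, the gene was at −0.12 ± 0.14 and its copy Gm28439 at −0.43 ± 0.17. Reads that match a copy and its gene equally well are not counted, so these counts hold only the remaining reads. Whether that remainder follows the transcripts, and the part of the copies in the difference, was not tested.

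Among the nuclear members *Cox6b2* was at 2.48, 2.06, 1.83, 1.57 and 2.04 CPM in SP placebo, against 2.92, 2.93, 2.17, 2.73 and 2.72 CPM in WT placebo (−0.43 ± 0.19, adjusted p = 0.999968, edgeR). *Cox6a2*, the muscle form of subunit 6a, was at −0.70 ± 0.48, and WT placebo 2 alone had 3.97 CPM where the other WT placebo libraries had 0.929 to 1.61 CPM. The gene lies on chromosome 7 at 128205435 to 128206387 (mm10), near *Slc5a2*. *Cox6c* of complex IV and *Ndufs6* of complex I followed at −0.13 ± 0.09 and −0.11 ± 0.08.

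Under the inhibitor, SP against WT, the members that came closest to the threshold were nuclear subunits. No member passed, where 1.84% of all genes did, and 60 of 82 nuclear members had positive log2 fold changes, with a median of 0.04 beside −0.02 over all genes and 0.01 over the mitochondrially encoded genes. The S3 markers differed in the same direction without overlap, at 18938 to 20834 CPM in SP MAT2Ai against 12941 to 18374 CPM in WT MAT2Ai. The S1 and S2 markers were at 20729 to 24125 CPM, against 16210 to 22848 CPM, and the injury markers at 507 to 719 CPM, against 540 to 8306 CPM. Under placebo the S3 markers were at 18399 to 22544 CPM in SP and 16477 to 18601 CPM in WT libraries. The nuclear median was −0.04 in that comparison. The part of these markers' cells in the nuclear members was not tested here either. At an unadjusted p under 0.05, 11 nuclear members were higher and 2 lower (all genes, 9.32% and 12.5%), so the count of higher members was near the share of all genes and that of lower members was below it. limma-voom called none, with 12 members at an unadjusted p under 0.05, and DESeq2 called 4, with 13.

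*Ndufa10* stood at 272, 262, 288, 265 and 281 CPM in SP MAT2Ai, against 239, 202, 232, 260 and 245 CPM in WT MAT2Ai. The groups did not overlap, as in 1.71% of all genes in the higher and 1.68% in the lower direction, and the log2 fold change was 0.22 ± 0.06 (adjusted p = 0.0595, edgeR). *Uqcrc1*, a core protein of complex III, was at 547, 494, 551, 518 and 567 CPM in SP MAT2Ai, against 472, 394, 468, 519 and 452 CPM in WT MAT2Ai (0.22 ± 0.06, adjusted p = 0.0671, edgeR). Here WT MAT2Ai 4 reached into the SP range and WT MAT2Ai 2 was the lowest.

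*Sdha*, the flavoprotein that oxidises succinate in complex II, was at 706, 630, 733, 677 and 723 CPM in SP MAT2Ai, against 650, 493, 618, 601 and 645 CPM in WT MAT2Ai (0.21 ± 0.07, adjusted p = 0.0981, edgeR). *Ndufv1*, which carries the NADH binding site of complex I, was at 386, 338, 387, 348 and 408 CPM, against 327, 286, 317, 385 and 309 CPM (0.20 ± 0.07, adjusted p = 0.0988, edgeR). *Atp5b* had 3108, 2764, 3122, 2763 and 3109 CPM in SP MAT2Ai, against 2740, 2128, 2691, 2743 and 2640 CPM in WT MAT2Ai, and these groups did not overlap either (0.20 ± 0.07, adjusted p = 0.116, edgeR). It was named after its values were seen. The 4 members that DESeq2 called were *Ndufa10* (adjusted p = 0.0146), *Uqcrc1* (0.0190), *Atp5b* (0.0426) and *Sdha* (0.0455).

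These calls depended on which WT MAT2Ai libraries were used. Without WT MAT2Ai 4, the library with the highest nuclear levels of its group, edgeR called *Ndufv1* (adjusted p = 0.0251), *Uqcrc1* (0.0295), *Ndufa10* (0.0314) and the complex I subunit *Ndufa1* (0.0336), and without WT MAT2Ai 5 it called *Ndufa10* alone (0.0486). Without WT MAT2Ai 2, 3 and 4 together it called none. The nuclear median of 0.04 was between −0.0027 without WT MAT2Ai 2 and 0.10 without WT MAT2Ai 4 when 1 library was left out, and −0.03 with library size alone as the scaling, where all genes had a median of −0.09. The mitochondrial median was between −0.12 without SP MAT2Ai 1 and 0.11 without SP MAT2Ai 2, and −0.22 without WT MAT2Ai 2, 3 and 4.

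*Cox8b*, the muscle and brown fat form of subunit 8, had the most negative value of the members in that comparison, −1.17 ± 0.54 (adjusted p = 0.215, edgeR). It was at 0.488, 0.526, 0.467, 0.592 and 0.639 CPM in SP MAT2Ai, against 0.227, 0.963, 2.73, 1.70 and 0.487 CPM in WT MAT2Ai. The 4 libraries with the most *Cox8b* of all 20, WT MAT2Ai 3 and 4, SP placebo 5 (1.70 CPM) and WT placebo 2 (1.16 CPM), were also those with the highest sums of the adipocyte markers, 60.6, 41.5, 36.1 and 47.2 CPM, where the other 16 libraries had 11.1 to 26.7 CPM. *Ucp1*, the uncoupling protein of brown fat, was at 9.99 CPM in WT MAT2Ai 3 and at 11.6 CPM in WT placebo 2, but at 0.906 CPM in WT MAT2Ai 4 and 0.501 CPM in SP placebo 5, and it reached 3.17 CPM in WT MAT2Ai 5, where *Cox8b* was low. The part of fat in the samples in these values was not tested. *Ndufa4l2* was at −0.60 ± 0.21 in the same comparison (adjusted p = 0.109, edgeR).

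**Figure D4:**
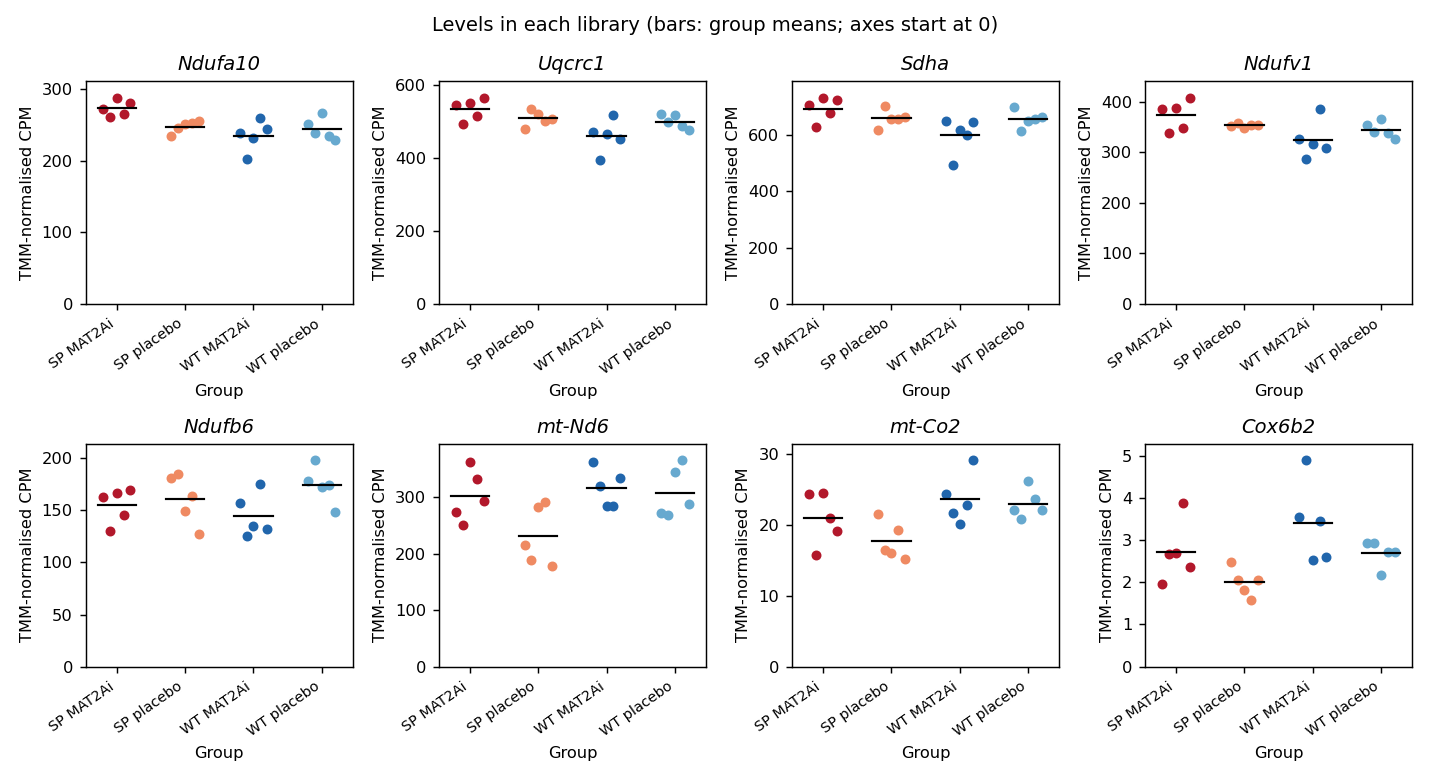
TMM-normalised CPM of 8 named members in every library, by group (points: libraries 1 to 5 from left to right; bars: group means; each axis starts at 0). Ndufa10 in SP MAT2Ai (262 to 288 CPM) lies above all libraries of SP placebo and of WT MAT2Ai, while the other genes overlap in each pair of groups that was tested.

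The difference between genotypes in the effect of the inhibitor was tested as an interaction. No member passed, as did 0% of all genes. Of the members 91 of 95 had positive values, all 13 mitochondrially encoded genes (median 0.18) and 78 of 82 nuclear members (median 0.09), beside a median of −0.01 over all genes. The inhibitor difference was thus on average more positive in SP than in WT mice for both genomes, with *mt-Co3* (0.52 ± 0.20), *Ndufa10* (0.19 ± 0.09) and *Uqcrc1* (0.19 ± 0.09) at an unadjusted p under 0.05 and none lower (all genes, 1.91% higher and 3.68% lower). The mitochondrial median was 0.39 for the 6 low genes and 0.12 for the 7 high genes. Gm28437, the nuclear copy of *mt-Co3*, stood at 0.55 ± 0.20. The smallest adjusted p of a member was 0.842 in edgeR, and DESeq2 and limma-voom, with 4 members each at an unadjusted p under 0.05, called none. Without WT MAT2Ai 2, 3 and 4 the mitochondrial median was 0.01 and the nuclear median 0.11. That fit leaves only WT MAT2Ai 1 and 5 in the group, and WT MAT2Ai 5 had the highest mitochondrial share of all libraries. Without the libraries labelled SP placebo 1 and 2 the medians were 0.25 and 0.13. With 1 library left out, the mitochondrial median lay between 0.11 without SP placebo 5 and 0.29 without WT MAT2Ai 5, and was 0.27 without SP placebo 1. The nuclear median lay between 0.05 without WT MAT2Ai 2 and 0.15 without WT MAT2Ai 4, and was 0.14 without WT placebo 5. The interaction shares its libraries with the comparisons above. Members of each genome tended to rise and fall together between libraries, so their signs are not independent.

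Averaged over both genotypes, MAT2Ai against placebo gave mostly opposite signs for the mitochondrial and the nuclear genes. Members of each genome tended to rise and fall together between libraries, so these signs are not independent. The median SE of a gene was 0.105 for the mitochondrial and 0.0558 for the nuclear members. All 13 mitochondrially encoded genes had positive log2 fold changes, 0.02 to 0.21 with a median of 0.10, and 76 of 82 nuclear members had negative ones, with a median of −0.07, beside 0.01 over all genes. By genotype, the mitochondrial and nuclear medians were 0.17 and −0.02 in SP mice, and 0.03 and −0.11 in WT mice. No member passed, where 0.223% of all genes did. At an unadjusted p under 0.05, 2 members were higher and 3 lower (all genes, 9.03% and 5.66%), namely *Cox6b2* (0.39 ± 0.14), *mt-Nd6* (0.21 ± 0.10), *Ndufb3* (−0.11 ± 0.05), *Atp5j* (−0.10 ± 0.05) and *Atp5f1* (−0.13 ± 0.06), with a smallest adjusted p of 0.240 in edgeR. DESeq2 and limma-voom gave 6 and 5 such members and called none. The sign of both medians was kept in all fits with 1 library left out, from 0.04 (without WT MAT2Ai 5) to 0.14 for the mitochondrial and from −0.09 to −0.04 (without WT MAT2Ai 2) for the nuclear genes.

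Averaged over both treatments, SP against WT gave a mitochondrial median of −0.16 and a nuclear median of 0.00, beside −0.01 over all genes, and a mitochondrial median of −0.20 without the libraries labelled SP placebo 1 and 2 and of −0.10 without WT MAT2Ai 5. The mitochondrial median was −0.21 for the 6 low genes and −0.05 for the 7 high genes. No member passed, where 1.33% of all genes did, and at an unadjusted p under 0.05 8 members were higher and 5 lower (all genes, 8.61% and 11%), with 13 such members in DESeq2 and in limma-voom, which called none. *mt-Co2* came closest, at −0.28 ± 0.09 (adjusted p = 0.0968, edgeR). It passed with library size alone as the scaling (−0.32, adjusted p = 0.0401) and without WT MAT2Ai 2, 3 and 4 (−0.37, adjusted p = 0.0488), and it is one of the genes with an identical nuclear copy. *Cox6b2* (−0.38 ± 0.14), *Ndufa10* (0.12 ± 0.04), *Uqcrc1* (0.12 ± 0.05) and *Ndufs1*, the largest iron-sulfur subunit of complex I (0.15 ± 0.06), followed with adjusted p values of 0.132 to 0.181 in edgeR. Without WT MAT2Ai 4, *Ndufv1* passed at 0.15 (adjusted p = 0.0455).

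**Figure D5:**
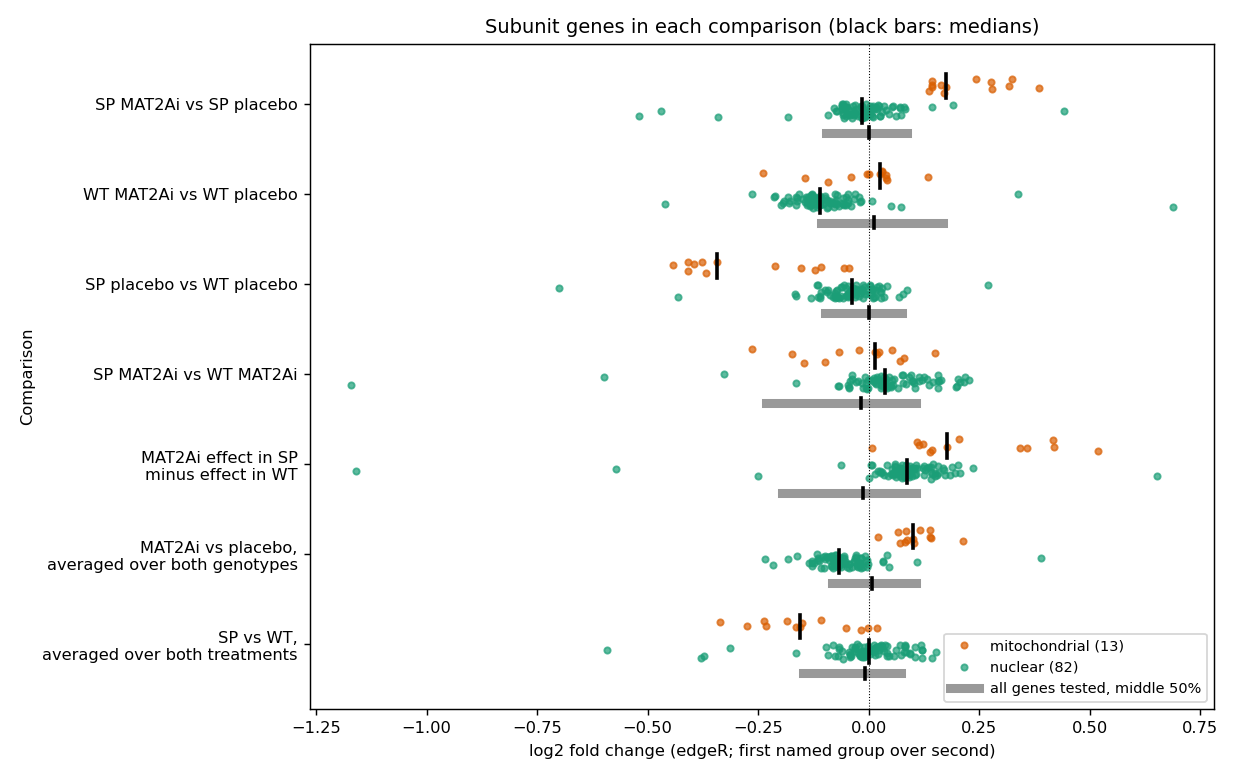
Log2 fold changes of the 13 mitochondrially encoded genes (orange) and the 82 nuclear members tested (green) in each of the 7 comparisons, with the middle 50% of all genes tested (grey); black bars are medians. The mitochondrial medians are 0.17 for SP MAT2Ai vs SP placebo and −0.34 for SP placebo vs WT placebo, and the nuclear median is −0.11 for WT MAT2Ai vs WT placebo. For SP placebo vs WT placebo the median is −0.39 over the 6 low and −0.12 over the 7 high mitochondrial genes.

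Genes that build or regulate the complexes were examined in 4 lists beside the subunits. Of 32 measured genes of mitochondrial transcription, RNA processing and translation none passed in any comparison. *Lrpprc*, which stabilises mitochondrial mRNAs, came closest in SP MAT2Ai against WT MAT2Ai, at 0.24 ± 0.07 (adjusted p = 0.0694, edgeR), where 26 of the 32 had positive values. In WT MAT2Ai against WT placebo 25 of the 32 were negative, with a median of −0.06, and *Mgme1*, a mitochondrial exonuclease, was at −0.36 ± 0.11, *Tefm*, an elongation factor of mitochondrial transcription, at −0.19 ± 0.07 and *Tfb2m*, a transcription initiation factor, at −0.16 ± 0.07.

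Of 52 measured assembly factors none passed either. In WT MAT2Ai against WT placebo 47 of the 52 were negative, with a median of −0.11, the same value as for the nuclear subunits, and *Tmem70*, *Tmem126b* and *Cox16*, which assist complexes V, I and IV, were at −0.20 ± 0.07, −0.21 ± 0.08 and −0.21 ± 0.08. Most were also negative in SP MAT2Ai against SP placebo, 38 of the 52, with a median of −0.04. In SP MAT2Ai against WT MAT2Ai *Uqcc2*, a complex III assembly factor, was at −0.34 ± 0.10 (adjusted p = 0.0614, edgeR), lower while 39 of the 52 had positive values, and *Oxa1l*, the inner membrane insertase, was at 0.16 ± 0.05. Among 18 measured electron carriers and inner membrane carriers, including cytochrome c1 (*Cyc1*), which the symbol rule did not take, none passed and 16 were negative in WT MAT2Ai against WT placebo (median −0.11). *Etfdh*, which feeds electrons from fatty acid oxidation to ubiquinone, was at 0.22 ± 0.06 in SP MAT2Ai against WT MAT2Ai (adjusted p = 0.0595, edgeR).

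Among 14 regulators of respiratory genes 1 passed. *Nr1d1*, the clock repressor REV-ERBα, fell under MAT2Ai averaged over both genotypes, by 0.80 ± 0.16 on the log2 scale (adjusted p = 0.0361, edgeR). It was at 30.1, 14.3, 21.7, 25.5 and 20.02 CPM in SP MAT2Ai, against 41.1, 49.3, 39.9, 24.9 and 48.6 CPM in SP placebo, and at 33.9, 16.8, 28.6, 33.2 and 30.8 CPM in WT MAT2Ai, against 29.96, 44.4, 56.2, 54.1 and 51.4 CPM in WT placebo. The groups overlapped by SP placebo 4 and by WT placebo 1. Within each genotype it did not pass (−0.87 ± 0.22, adjusted p = 0.447 in SP mice and −0.72 ± 0.22, adjusted p = 0.170 in WT mice, edgeR), and the call was lost without any 1 of 12 libraries (SP MAT2Ai 2, 3 or 5, SP placebo 1, 2, 3 or 5, WT MAT2Ai 3, WT placebo 2, 3, 4 or 5), at adjusted p values of 0.0517 to 0.0849. *Nr1d1* transcripts cycle over the day, and the times of tissue collection are not given in the sources used here, so their part was not tested. *Pprc1*, a coactivator of the PGC-1 family, was at 0.27 ± 0.08 and *Gabpa*, the DNA-binding subunit of GABP, at −0.10 ± 0.05 in the same comparison.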

How the data were processed

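Kidney cortex RNA in 20 libraries was analysed, 5 in each of 4 groups taken from the sample titles and treatment labels. Per the methods, libraries were directional and poly(A)-selected, and STAR alignments to mm10 were counted by htseq over Ensembl 78 genes. The authors deposited these raw counts unscaled. Whether counting used strand is not given in the sources used here. Symbols and coordinates came from GENCODE M21. Lines that name no gene stayed out of totals and tests (unique reads outside genes, 3.87% to 5.49%).

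Counts were filtered with filterByExpr, scaled by TMM and tested with edgeR 4.0.16 (quasi-likelihood, R 4.3.3) in a single fit of the 4 groups. P values were adjusted over 16152 genes by Benjamini-Hochberg with a threshold of 0.05, and every adjusted p comes from this test unless DESeq2 1.42.0 or limma-voom (limma 3.58.1) is named. CPM per library are TMM-normalised, and TPM use the summed exon length. Library scores are medians over genes of log2(CPM + 0.5) minus each gene's mean. Nuclear copies were found with BLAST 2.17.0 among annotated transcripts. Scripts were tested on simulated data. No libraries of a group agreed within counting noise.

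Same-numbered libraries did not deviate together (mean r = −0.0158 over 30 pairs, 4 over 0.1), so numbers were not used as pairs. The labels give replicate numbers and do not say that each is a separate mouse, so p values measure the spread between libraries, which may be technical. Named genes were the 13 mitochondrial ones, the 4 nuclear members with the smallest p per comparison above a mean log2 CPM of 0, the isoform groups, the highest and lowest members per complex, and up to 3 genes per other list. Members, lists and rules were chosen with earlier results of these data known. Alternatives were other scalings, tools, filters and samples, including each library left out in turn.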

Additional observations from a re-analysis of the deposited data

Results flagged for a closer look

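Within groups of 5, 7 of 156 sets of values had 1 library whose distance to its nearest neighbour took over 0.71 of the range (Dixon's test at 95%), and chance alone flags about 1 set in 20. WT MAT2Ai 2, the library with the injury markers, was low for *Atp5b* at 2128 CPM (others 2640 to 2743) and for *Ndufs1* at 169 CPM (others 242 to 261). In SP MAT2Ai 2 the complex IV score was −0.15 (log2), where the others were −0.02 to 0.03. SP placebo 5 was low for *Atp5j* at 253 CPM (others 283 to 290). SP placebo 1, whose *Slc5a2* level lies between those of most SP and most WT libraries, was high for *mt-Nd4l* at 2.58 CPM (others 1.97 to 2.12). In the WT placebo group, library 2 was high for *Cox6a2* at 3.97 CPM (others 0.929 to 1.61) and library 3 low for *Cox6b2* at 2.17 CPM (others 2.72 to 2.93).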

How the results depend on the processing

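The count of members called was 0 in every comparison with DESeq2 size factors, the TMM factors of genes outside the mitochondrial genome, limma-voom, no filter or the replicate block, and in the 4 comparisons of group pairs fitted on the compared groups alone. It was 4 with DESeq2 in SP MAT2Ai against WT MAT2Ai, and 1 with library size alone and 1 without WT MAT2Ai 2, 3 and 4 in SP against WT averaged. With 1 library left out it was 0 to 4 in SP MAT2Ai against WT MAT2Ai, 0 to 1 in SP against WT averaged, and 0 elsewhere. The mitochondrial median in SP MAT2Ai against WT MAT2Ai was −0.22 without WT MAT2Ai 2, 3 and 4, beside 0.01. No other median moved by more than 1 within-group SD of the library score (0.215 mitochondrial, 0.105 nuclear). That SD is larger than several of the medians, so a median could change sign without passing it. The sign changed in 10 alternative fits for the nuclear median of SP against WT averaged. In SP MAT2Ai against WT MAT2Ai it changed in 10 for the mitochondrial and in 2 for the nuclear median. For the inhibitor it changed in 4 for the nuclear median in SP mice and in 4 for the mitochondrial median in WT mice. With counts outside the mitochondrial genome as the total, the nuclear shares were 2.81% in SP MAT2Ai, 2.82% in SP placebo, 2.79% in WT MAT2Ai and 2.94% in WT placebo, since the total is smaller. Library size alone put the median of all genes in SP MAT2Ai against WT MAT2Ai at −0.09, and the nuclear members at −0.03, above that shift. The fall of *Nr1d1* was not called without SP placebo 1 and 2 (adjusted p = 0.189), without WT MAT2Ai 2, 3 and 4 (0.0777) or with the replicate block (0.0701). The causes were not tested. Depth left every mitochondrial gene at 71 reads or more in each library.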
